A study of Mus musculus with 60 samples.

Results

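Interneurons are the local GABA-releasing cells of the cortex and striatum, together with the cholinergic interneurons of the striatum, and the 10 genes described here are the ones most often used to tell their classes apart. The members were Pvalb, Sst, Vip, Npy, Chat, Th, Nos1, Cck, Calb2 and Lamp5, found by gene symbol among the 47574 entries used, with 1 entry each. RNA-Seq libraries of 3-month-old mice, labelled c57BL-6N throughout, came from 2 lines, both altered in exon 12 of Htt, the gene of huntingtin. The Δ12 line carried a CRISPR/Cas9 knock-in deletion in that exon which copies a spliced huntingtin isoform, made in C57BL/6 embryonic stem cells, with the groups +/+, Δ12/+ and Δ12/Δ12. The KO line, from a single founder of the same editing work, lacked the exon's usual splice donor site and served as the null control, with the groups +/+ and KO/+. Each of these 5 genotypes was labelled in cortex and in striatum, with 6 libraries per group (3 labelled male and 3 labelled female), which gave 60 libraries. The labels name no agent.

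In the cortex, interneurons arise from the medial ganglionic eminence, the source of the parvalbumin and somatostatin classes, and from the caudal ganglionic eminence, the source of the Vip class and most neurogliaform cells. Striatal interneurons are fewer, and include fast-spiking Pvalb cells, low-threshold cells that share Sst, Npy and Nos1, cholinergic cells and cells with Calb2 or Th. None of the members is confined to interneurons in the whole brain: Cck is also made by cortical pyramidal cells, Pvalb by neurons of the thalamus, Calb2 and Th by cells of the olfactory bulb, and Calb2 by many hypothalamic and thalamic neurons. In bulk tissue, fewer cells of a type and less RNA per cell cannot be told apart.

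The labels and the transcripts disagreed in part. Slc17a7, the vesicular glutamate transporter of cortical excitatory neurons, divided the libraries into 30 cortex-like ones, at 121 to 234 FPKM (fragments per kilobase of transcript, scaled to library size), and 30 striatum-like ones, at 4.81 to 64.8 FPKM, around a threshold of 100. Of the 30 libraries labelled cortex and the 30 labelled striatum, 15 each were striatum-like. All 24 KO-line libraries were striatum-like, as were 6 of the 36 Δ12-line libraries, those of the labelled Δ12/Δ12 females. Among the +/+ libraries, line and expression-defined tissue therefore cannot be told apart. Xist, the only sex-linked transcript read for this, went against the labelled sex in 30 of 60 libraries. Htt in 6 of 12 KO/+ libraries lay above the lowest +/+ library of the KO line (12.7 to 20.0 rescaled FPKM in KO/+, 16.6 to 20.7 in +/+). Cortex-like libraries also held more entries above 1000 rescaled FPKM (82 to 319 per library, against 32 to 99).

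Members' identities, as the deposited tables give them on GRCm38, were Sst (ENSMUSG00000004366, chr16:23889581-23890844), Pvalb (ENSMUSG00000005716, chr15:78191114-78206400), Npy (ENSMUSG00000029819, chr6:49822710-49829507), Nos1 (ENSMUSG00000029361, chr5:117781032-117958840), Vip (ENSMUSG00000019772, chr10:5639218-5647614), Cck (ENSMUSG00000032532, chr9:121489825-121495689), Lamp5 (ENSMUSG00000027270, chr2:136052239-136069917), Calb2 (ENSMUSG00000003657, chr8:110142539-110168206), Th (ENSMUSG00000000214, chr7:142892752-142931128) and Chat (ENSMUSG00000021919, chr14:32408203-32465909). Each span covers the whole gene, exons and introns. In GENCODE M21, Slc18a3, the vesicular acetylcholine transporter, lies within Chat on the same strand, so how reads were divided between Chat and Slc18a3 is uncertain. Nos1 is overlapped by Gm37028 on its own strand and by Gm26995 on the other, and Chat by Gm2990 on the other.

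Several neuropeptide promoters hold a cAMP response element, a short palindrome that is well known from the Sst promoter. The 100 bases before the start are shown for the 4 members found to hold that element or its core within them. The 3 peptide genes among these (Sst, Vip and Cck) were lower in all libraries of one tissue described next. Th, with the same palindrome as Sst, had nearly equal medians in both tissues. Sequences are from RefSeq on GRCm38.p6, 5′ to 3′ along the gene, and capitals mark the palindrome TGACGTCA. Where the palindrome was not found, they mark its core of letters TGACG, which in Cck lies on the opposite strand and is therefore printed there as its reverse complement.
Sst, minus strand, chr16:23890845-23890944: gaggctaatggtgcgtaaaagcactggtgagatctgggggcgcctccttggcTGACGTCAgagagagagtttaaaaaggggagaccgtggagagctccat
Th, minus strand, chr7:142899996-142900095: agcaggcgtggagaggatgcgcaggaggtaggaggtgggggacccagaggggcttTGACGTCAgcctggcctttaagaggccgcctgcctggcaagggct
Vip, plus strand, chr10:5639118-5639217: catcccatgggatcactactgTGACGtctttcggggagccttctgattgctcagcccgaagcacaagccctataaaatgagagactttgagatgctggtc
Cck, minus strand, chr9:121495695-121495794: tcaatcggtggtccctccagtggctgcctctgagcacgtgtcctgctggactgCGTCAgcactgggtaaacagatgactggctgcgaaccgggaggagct

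The palindrome began at -48 in Sst and -45 in Th, counted from the transcription start, and the core at -79 in Vip and -47 in Cck. In windows from 250 bases before to 50 after each start, 1.79% of 32851 mouse promoters held the palindrome and 20.8% the core, which the palindrome contains, on either strand. Nos1 and Chat held the core farther out, at -130 and -171, and both had the higher median in striatum-like libraries. These letters were not in the windows of Npy, Pvalb or Lamp5, and Pvalb too was lower in every striatum-like library. The Calb2 promoter was not analysed here. A match is a description of letters and not a site shown to be used, and its relation to the levels was not tested.

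Across expression-defined tissue, the level of Sst led the members in both sets, and 5 members separated the sets without overlap. Pvalb, Sst, Vip and Cck were lower in every striatum-like library than in any cortex-like one, and Chat was higher in every one. Npy, Lamp5, Calb2, Nos1 and Th had overlapping ranges. Of 16076 genes with a mean of at least 0.5 rescaled FPKM (FPKM divided by a median-of-ratios factor for each library), 36.2% did not overlap between the sets, 16.9% with the cortex-like libraries above and 19.3% with the striatum-like libraries above. The sets were made from a measured transcript, so these differences are given without a test.

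**Figure D1:**
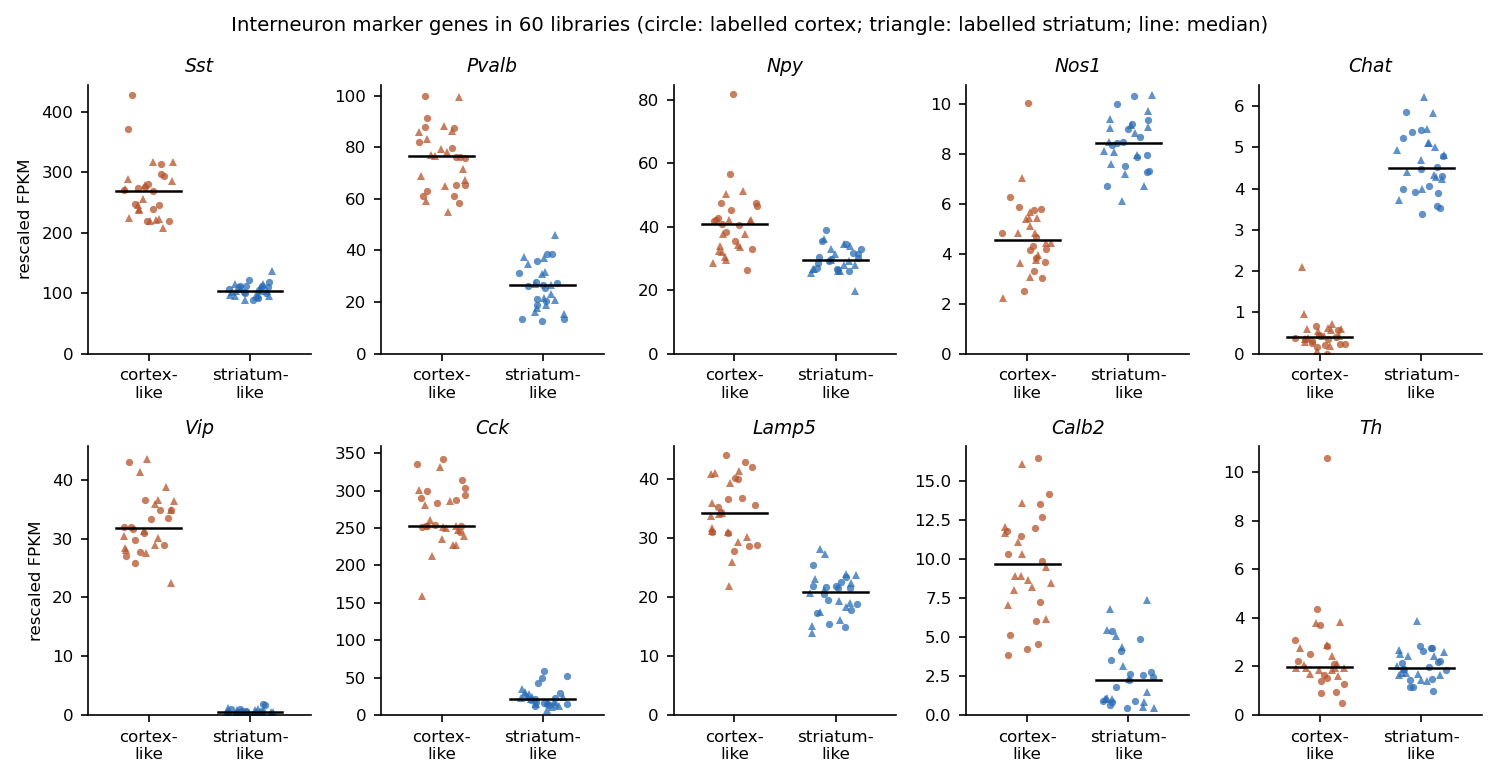
Rescaled FPKM of the 10 members (vertical axes, linear, from 0) in each of 60 libraries, grouped by expression-defined tissue, with circles for labelled cortex, triangles for labelled striatum and a line at the median. Vip, Cck, Sst, Pvalb and Chat form separate clouds, and both label symbols occur in every cloud.

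In the cortex-like libraries the order of the median levels was Sst, Cck, Pvalb, Npy, Lamp5, Vip, Calb2, Nos1, Th and Chat. Neighbours in this order overlapped in range, except that every value of Cck lay above every value of Pvalb and every value of Vip above every value of Calb2. In the striatum-like libraries the order was Sst, Npy, Pvalb, Cck, Lamp5, Nos1, Chat, Calb2, Th and Vip. There Sst stood clear of Npy, Lamp5 stood clear of Nos1, and the other neighbours overlapped. Vip moved from the sixth place to the tenth and Chat from the tenth to the seventh. FPKM are per kilobase, which allows levels of different genes to be set side by side.

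Sst encodes somatostatin, the peptide of dendrite-targeting interneurons in the cortex and of low-threshold cells in the striatum. Its level ran from 207 to 428 rescaled FPKM in cortex-like libraries (median 269) and from 87.9 to 136 in striatum-like ones (median 104), a ratio of medians of 0.387, which became 0.976 under quantile normalization. It was also the steadiest striatum-like member, with a coefficient of variation of 10.1%. By its place among all entries Sst hardly differed, with a median rank of 329 in cortex-like and 333 in striatum-like libraries. The levels at the top of the 2 sets were far apart, since the entry at rank 200 had a median of 590 rescaled FPKM in cortex-like and 164 in striatum-like libraries.

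Pvalb encodes parvalbumin, the calcium buffer of fast-spiking basket cells. It ran from 54.9 to 100 rescaled FPKM in cortex-like libraries (median 76.5) and from 12.5 to 46.1 in striatum-like ones (median 26.4). Its coefficient of variation was 16.0% in the cortex-like set and 33.6% in the striatum-like set. Nos1, the neuronal nitric oxide synthase of long-range and low-threshold cells, moved the other way, from 2.21 to 10.0 (median 4.57) to 6.12 to 10.4 (median 8.46). The cortex-like range of Nos1 reached 10.0 through 1 library, the first labelled cortex +/+ male of the Δ12 line, and the next highest was 7.02. Npy, the peptide neuropeptide Y of neurogliaform and low-threshold cells, ran from 26.4 to 81.8 (median 40.7) and from 19.9 to 39.1 (median 29.5). In striatum-like tissue Npy thus stood at 0.724 of its cortex-like median and Nos1 at 1.85 times, although low-threshold cells carry both. Under quantile normalization the ratio of Npy was 1.00.

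Vip, the vasoactive intestinal peptide of disinhibitory cells, showed the largest ratio of the 10. It ran from 22.5 to 43.6 rescaled FPKM in cortex-like libraries (median 31.9) and from 0.0473 to 1.80 in striatum-like ones (median 0.546), a 58.4-fold lower median. The deposited intervals of Vip were wide at those low levels, with a median half-width of 56.6% of the value, against 7.06% in cortex-like libraries. Cck, the peptide of a basket cell class and of pyramidal cells, had a median of 253 (160 to 343) in cortex-like and 21.6 (6.37 to 58.3) in striatum-like libraries. The lowest cortex-like Cck value belonged to the third labelled striatum Δ12/+ male, which also had the highest cortex-like Chat (2.09) and a striatal projection neuron sum of 578, against a cortex-like median of 141.

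Lamp5, a membrane protein that marks neurogliaform cells, had a median of 34.3 (21.9 to 44.1) in cortex-like and 20.9 (13.9 to 28.1) in striatum-like libraries. Calb2, the calcium buffer calretinin, had a median of 9.67 (3.84 to 16.4) and 2.27 (0.435 to 7.38), with coefficients of variation of 34.7% and 76.9%. The Calb2 values of 22 of the 30 striatum-like libraries lay below all cortex-like values, and those of 8 did not.

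Chat, the enzyme that makes acetylcholine, was low in cortex-like libraries (0 to 2.09, median 0.389, with 1 library listed at 0) and ran from 3.39 to 6.21 in striatum-like ones (median 4.5). Th, the rate-limiting enzyme of catecholamine synthesis, had medians of 2.00 (0.492 to 10.6) and 1.94 (0.995 to 3.89), a ratio of 0.969. The coefficient of variation in cortex-like libraries was 80.4% for Chat and 71.9% for Th, the 2 highest of the members.

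Genes known to travel with the members did not all follow them. All 4 genes of GABA synthesis and transport were higher in every striatum-like library, among them Gad1 (median 73.2 and 153) and Slc32a1, the vesicular GABA transporter (14.0 and 65.1). Of the 6 partners of parvalbumin cells, Kcnc1 (9.16 and 25.2) and Syt2 (4.03 and 16.5) were higher in every striatum-like library, against the direction of Pvalb, and 4 overlapped. Kcnc1 encodes a fast potassium channel and Syt2 a calcium sensor of release, and neither is limited to interneurons. Among the 6 partners of somatostatin and Nos1 cells, 3 were lower without overlap, including Crhbp (6.82 and 0.768) and Grin3a (7.73 and 4.65), and 2 were higher, Pdyn (7.61 and 37.1) and Tacr1 (0.411 and 4.42). Pdyn, the dynorphin precursor, is also made by striatal projection neurons. Of 8 genes of medial eminence cells, 2 were higher without overlap and 6 overlapped, and Satb1 had the higher cortex-like median (14.8 and 6.21) while Sox6 did not (4.60 and 7.66).

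Of the 6 cholinergic partners, 3 were higher without overlap, in the direction of Chat: Slc5a7, the choline transporter (1.05 and 5.61), Isl1, a transcription factor of striatal cholinergic cells (0.850 and 4.78), and Slc18a3 (0.254 and 3.63). The other 3 overlapped, Lhx8 among them (0.521 and 2.53). Slc18a3 lies within Chat, and how reads were divided between them is uncertain. All 4 measured partners of Vip cells overlapped, and so did all 5 catecholamine genes. In the list of caudal eminence cells 3 of 10 were higher, 1 was lower, namely Cxcl14 (28.4 and 19.7), and 6 overlapped. All 8 markers of striatal projection neurons were higher in every striatum-like library. Of the lists for other cells, 2 of 3 oligodendrocyte genes, 1 of 3 microglial genes and 1 of 3 endothelial genes were higher without overlap. Lower without overlap were 1 of 6 cortical excitatory genes (Slc17a7, which made the sets), 2 of 4 olfactory bulb genes, 1 of 5 hypothalamic genes and 1 of 3 endothelial genes. All thalamus, choroid plexus and astrocyte genes overlapped, with choroid plexus sums of 1.63 to 374 in cortex-like and 31.7 to 2074 in striatum-like libraries.

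Labelled tissue did not divide the members. Across all 60 libraries, none of the 10 was called between labelled striatum and labelled cortex with limma, at a Benjamini-Hochberg adjusted p under 0.05 over all genes tested, and the background was 0% of 16076 genes, with 393 at an unadjusted p under 0.05. The log2 difference of Vip was 0.00 (95% interval -0.55 to 0.55) and that of Chat 0.21 (-0.12 to 0.54). Npy was the member nearest to a difference, at -0.16 (-0.30 to -0.01, unadjusted p = 0.0341 with limma).

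Between the 2 +/+ groups, by contrast, 9 members differed in labelled striatum and 9 in labelled cortex, all except Th. In labelled striatum 79.3% of 15712 genes were called (41.9% higher in the KO line and 37.4% lower), and in labelled cortex 68% of 15800 (36.3% higher and 31.7% lower), so a count of 9 in 10 stands close to the background. Chat and Nos1 were higher in the KO line and the other 7 lower, in both labelled tissues, except that Sst was higher under quantile normalization (0.13 in labelled striatum and 0.26 in labelled cortex). The log2 difference of Vip was -5.16 ± 0.17 (SE, 6 libraries per group) in labelled striatum and -4.90 ± 0.16 in labelled cortex, and that of Chat 2.50 ± 0.18 and 2.78 ± 0.18. Since these groups are also the cortex-like and the striatum-like +/+ libraries, and mice of different lines, this comparison cannot tell line and tissue apart. Outside it, the striatum-like Δ12/Δ12 libraries of the Δ12 line had Vip at 0.308 to 1.02 rescaled FPKM and Chat at 3.58 to 6.21. The KO-line +/+ libraries had Vip at 0.217 to 0.990 and Chat at 3.98 to 5.85.

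In Δ12/+ mice no member was called in either labelled tissue. The comparisons with +/+ called 1 of 15077 genes in labelled striatum (0.00663%) and 8 of 15095 in labelled cortex (0.053%), with 475 and 1313 genes at an unadjusted p under 0.05. All of these libraries were cortex-like. Chat was too low to be tested in labelled cortex. The intervals were narrow for the abundant members: the log2 difference of Cck was -0.06 (95% interval -0.29 to 0.16) in labelled cortex, that of Sst -0.20 (-0.50 to 0.10), and that of Pvalb -0.13 (-0.45 to 0.19). The nearest to a call was Lamp5 in labelled cortex, at 0.35 ± 0.09 (95% interval 0.15 to 0.54, adjusted p = 0.286 with limma). Vip in labelled striatum stood at -0.35 (-0.60 to -0.09, unadjusted p = 0.0129 with limma).

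Between libraries labelled Δ12/Δ12 and +/+, 4 of the 10 members were called in labelled striatum. Sst (-0.68 ± 0.17, adjusted p = 0.0306), Vip (-2.51 ± 0.76, adjusted p = 0.0382) and Cck (-1.73 ± 0.52, adjusted p = 0.0376) were lower, and Chat (1.41 ± 0.45, adjusted p = 0.0421) was higher, as log2 differences with limma. Sst stood at 0.14 under quantile normalization. The background was 28.7% of 15467 genes, 14.9% higher and 13.8% lower, so a count of 4 in 10 stands near the background. None of the 4 calls was stable: without 1 library, Sst, Vip and Cck lost theirs in 6 of 12 fits and Chat in 7, and with no sex covariate 0 members were called. The 6 Δ12/Δ12 libraries of this comparison came from both sets, while all 6 +/+ libraries were cortex-like. With all 12 libraries, genotype and expression-defined tissue therefore cannot be told apart. In the labelled males, which were cortex-like, Vip stood at 28.5, 35.8 and 38.8 rescaled FPKM, and in the labelled females, which were striatum-like, at 0.562, 0.582 and 1.02. In +/+ labelled striatum, Vip ran from 30.4 to 36.6 in labelled males and from 31.4 to 43.6 in labelled females.

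Restricted to labelled males, where all 6 libraries were cortex-like, 0 of the 10 members and 0.0666% of 15007 genes were called, and the log2 differences were -0.01 for Vip, -0.09 for Cck and -0.34 for Sst. Restricted to labelled females, where striatum-like libraries were set against cortex-like ones, 8 members and 70.9% of 15590 genes were called. In the test of the sex difference itself, 7 members were called in labelled striatum and 9 in labelled cortex, the comparisons in which 8639 of 15467 and 6943 of 15696 genes were called. In labelled cortex no member passed with all 12 libraries (0.79% of 15696 genes, with 6003 at an unadjusted p under 0.05). The 3 labelled male Δ12/Δ12 cortex libraries had Vip at 28.9, 31.0 and 32.1, within the +/+ range of 25.8 to 33.5, and the 3 labelled females had it at 0.308, 0.309 and 0.620.

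**Figure D2:**
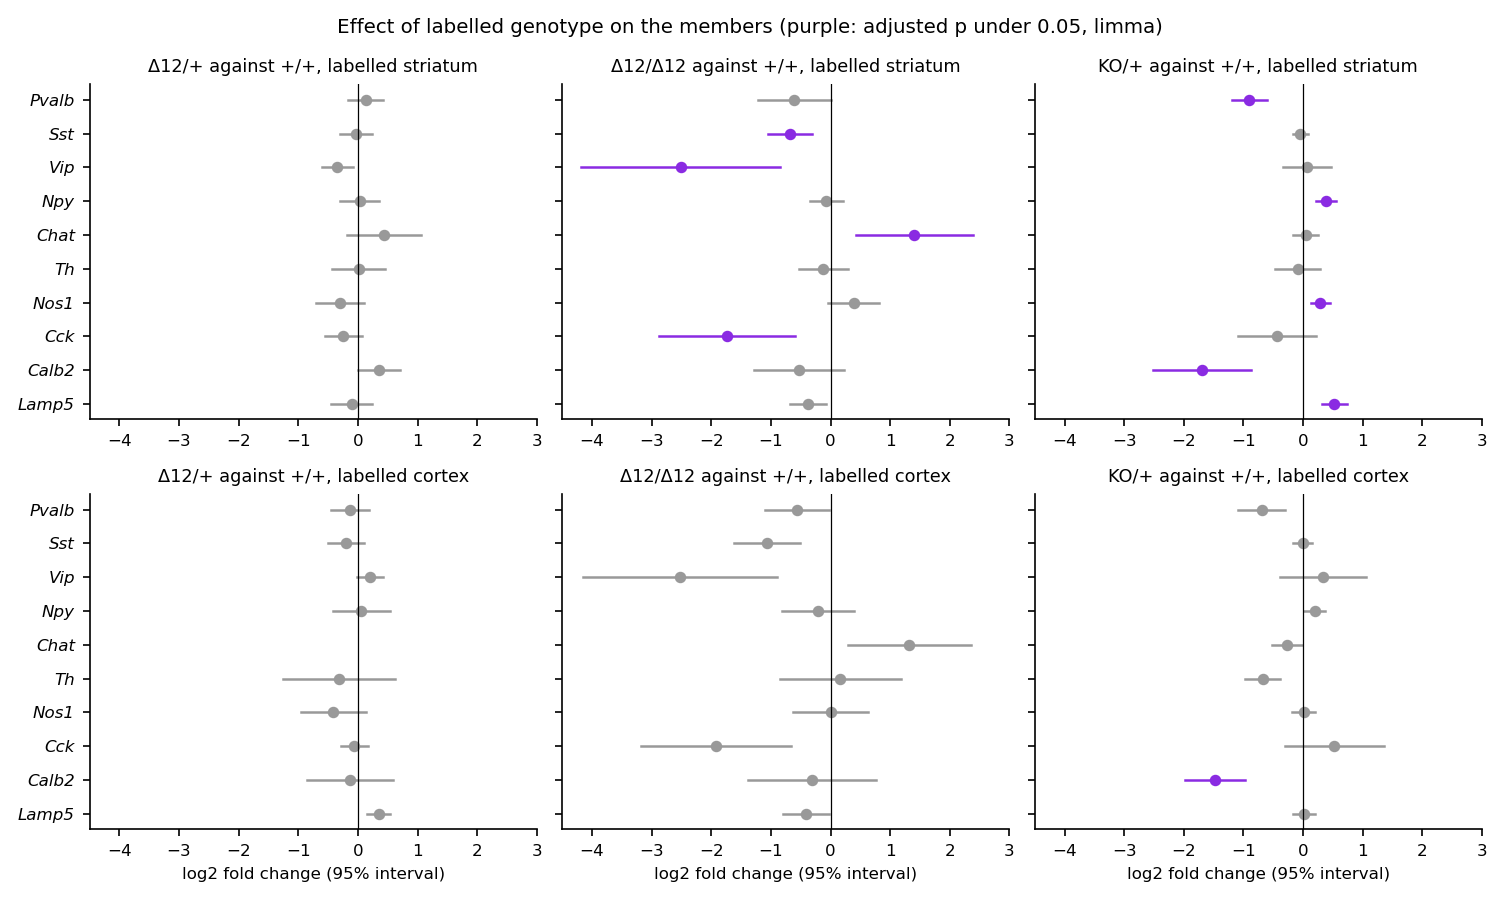
Log2 fold change of each member against +/+ of the same line (horizontal axes, with 95% intervals) for the 3 genotypes in labelled striatum (upper row) and labelled cortex (lower row), 6 libraries per group, with calls at an adjusted p under 0.05 in purple. The intervals of Vip and Cck in Δ12/Δ12, where both sets are mixed, are wider than in the Δ12/+ and KO/+ panels of the same labelled tissue.

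In the KO line, where all libraries were striatum-like, 5 members were called between labelled KO/+ and +/+ in labelled striatum. Pvalb and Calb2 were lower in KO/+, and Npy, Nos1 and Lamp5 were higher. Over both labelled tissues, Htt in 6 of 12 KO/+ libraries lay above the lowest +/+ library, so Htt does not separate the labelled genotypes. The background was 8.17% of 15808 genes, 4.4% higher and 3.78% lower. With FPKM as deposited, without rescaling, 27 genes were higher and 321 lower, in place of 695 and 597, and only Pvalb (-0.99, adjusted p = 0.00479) and Calb2 (-1.72, adjusted p = 0.0388, both with limma) were called. Npy, Nos1 and Lamp5 then stood at 0.29, 0.20 and 0.43, with the direction unchanged.

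Pvalb ran from 30.8 to 46.1 rescaled FPKM in +/+ (median 35.9) and from 15.5 to 27.0 in KO/+ (median 18.3), without overlap. Its log2 difference was -0.90 ± 0.13 (adjusted p = 0.00344 with limma), and it was called in each of the 12 fits that left out 1 library. Calb2 ran from 0.855 to 7.38 in +/+ (median 4.71) and from 0.435 to 1.11 in KO/+ (median 0.999). Its log2 difference was -1.69 ± 0.38 (adjusted p = 0.0189 with limma), and 1 +/+ library overlapped KO/+. The +/+ values of Calb2 were widely spread, with an SD of 2.53 on a mean of 4.45.

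Npy ran from 19.9 to 26.8 in +/+ and from 29.2 to 36.2 in KO/+, a log2 difference of 0.39 ± 0.08 (adjusted p = 0.0124 with limma). Lamp5 ran from 13.9 to 19.0 in +/+ and from 20.6 to 28.1 in KO/+, a difference of 0.52 ± 0.10 (adjusted p = 0.00792 with limma). Neither gene overlapped between the groups. Nos1 ran from 6.12 to 8.14 and from 8.08 to 9.72, a difference of 0.29 ± 0.07 (adjusted p = 0.0302 with limma), with slight overlap. Nos1 was no longer called in 8 of the 12 fits without 1 library, whose adjusted p reached 0.0673 with limma.

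The members that did not pass in KO/+ labelled striatum were Sst, Vip, Chat, Th and Cck. Sst differed by -0.05 on the log2 scale (95% interval -0.17 to 0.08) and Chat by 0.04 (-0.17 to 0.25). Sst ran from 94.5 to 115 in +/+ and from 88.1 to 106 in KO/+. Its low-threshold companions Npy and Nos1 were called higher in the same comparison.

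In labelled cortex of the KO line, Calb2 alone was called. It ran from 2.26 to 5.38 in +/+ and from 0.435 to 1.79 in KO/+, a log2 difference of -1.47 ± 0.23 (adjusted p = 0.0335 with limma), without overlap. The background was 0.114% of 15820 genes, 0.107% lower and 0.00632% higher. The call was lost in 10 of 12 fits that left out 1 library. Pvalb stood at -0.69 ± 0.18 (adjusted p = 0.15) and Th at -0.68 ± 0.14 (adjusted p = 0.0841, both with limma). Th ran from 1.98 to 2.83 in +/+ and from 0.995 to 1.88 in KO/+. Among 29 tests of whether a genotype effect on a member differed between labelled tissues, 0 were called, with 1841 genes at an unadjusted p under 0.05 for KO/+, and no gene passed adjustment there.

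**Figure D3:**
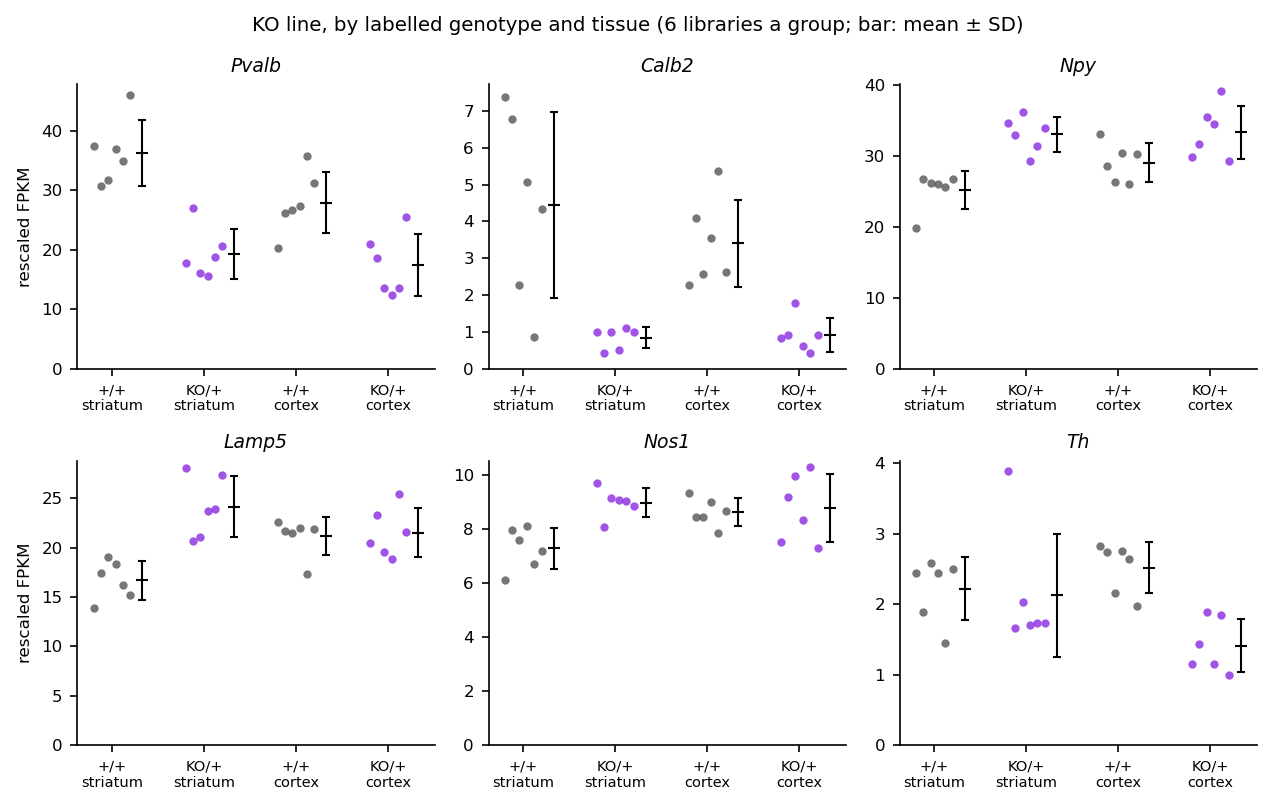
Rescaled FPKM (vertical axes, from 0) of the 5 members called in the KO line and of Th, in the 6 libraries of each labelled genotype and tissue, with the mean ± SD beside each group. In labelled striatum the KO/+ points of Pvalb lie below and those of Npy and Lamp5 above all +/+ points.

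Markers of neighbouring regions and cell types moved in the same KO/+ comparison of labelled striatum. The summed level of the thalamus list ran from 44.2 to 73.3 rescaled FPKM in +/+ and from 10.0 to 18.1 in KO/+, and all 3 of its genes were lower (Tcf7l2, Prkcd and Ntng1). All 5 hypothalamic peptides were lower, with a sum of 9.16 to 143 in +/+ and 1.54 to 4.51 in KO/+, and the melanin-concentrating hormone precursor Pmch fell by 5.12 on the log2 scale. The 3 myelin genes measured were lower (787 to 945 and 653 to 729) and all 8 markers of striatal projection neurons were higher (1144 to 1558 and 1620 to 2102). Of the other lists, 1 of 4 astrocyte genes was lower, 1 of 6 cortical excitatory genes was higher and 1 lower, and no choroid plexus, microglial, endothelial, olfactory bulb or catecholamine gene passed. The part of these lists in the results on Pvalb, Calb2, Npy, Nos1 and Lamp5 was not tested.

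In that comparison some partner genes of the members were called too. Of 6 parvalbumin cell partners, 3 were lower, Kcnc1 (-0.62), Kcnc2 (-1.39) and Syt2 (-0.58), with a list median of -0.38 beside 0.02 for all genes. Of 8 caudal eminence genes tested, 4 were lower, among them Adarb2 (-0.73), and the list median was -0.26. Of 4 partners of somatostatin and Nos1 cells tested, Pdyn (0.42) and Tacr1 (0.34) were higher and Grin3a (-0.42) lower. Of the 4 Vip cell partners tested, Tac2, a tachykinin peptide, was lower (-1.72), as it was in labelled cortex (-1.92). None of the GABA, medial eminence or cholinergic genes passed. In labelled cortex, the thalamus sum was 12.0 to 40.8 in +/+ and 8.44 to 30.4 in KO/+, and the hypothalamus sum 4.06 to 31.7 and 1.86 to 3.03.

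Within each set, members were then compared with the summed level of each of 18 marker lists across 30 libraries, 360 relations in all. For the relations given here, the permutation p of Pearson's r and of Spearman's rho was 1e-05, the smallest that 100000 resamples can give, unless another is stated, with Benjamini-Hochberg adjusted values of 0.00018 for r and 0.000225 for rho. The labels give 1 library of cortex and 1 of striatum the same sex and number within a genotype, and both fell in the same set. Which libraries share a mouse is therefore uncertain. The points cannot be taken as independent, and these p-values are likely too small.

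In cortex-like libraries, Calb2 rose with the olfactory bulb list (Tbx21, Eomes, Cdhr1 and Doc2g), with r = 0.88 and rho = 0.85. Without the 2 libraries farthest from the median of the list r was 0.84, and rho was 0.67 within the 12 +/+ libraries and 0.90 within the 12 Δ12/+ ones. The list ran from 5.61 to 76.0 rescaled FPKM. Th followed the same list by rank, with rho = 0.74 (permutation p = 2e-05, adjusted 0.000379) and 0.72 and 0.83 within those genotypes, but not linearly, with r = 0.38 (permutation p = 0.035, adjusted 0.128). The Th value of 10.6, in the first labelled cortex +/+ female of the Δ12 line, lay far above that trend. Calb2 and Th also ranked alike (rho = 0.73, 30 libraries). In striatum-like libraries the olfactory bulb list was near 0 (0.347 to 1.66) in every library.

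The cortical excitatory list was mostly Slc17a7, the transcript that made the sets (a median of 87.7% of the sum in cortex-like and 54.2% in striatum-like libraries), so the values of Cck and Vip with the full list are a description with no test. With the full list, rho of Cck was 0.76 in cortex-like and 0.93 in striatum-like libraries, and that of Vip was 0.72 in striatum-like ones. The other 5 genes of the list were then summed alone, a choice made after seeing the data, and compared with the 10 members in both sets (20 relations, adjusted together). In striatum-like libraries Cck rose with these genes, at r = 0.82 and rho = 0.81 (adjusted 0.0002 for both), with r = 0.77 without the 2 farthest libraries and rho = 0.68 in +/+ and 0.90 in KO/+ of the KO line. Vip had r = 0.63 (permutation p = 0.00027, adjusted 0.0027) and rho = 0.50 (p = 0.0055, adjusted 0.037) with them, r = 0.51 without the 2 farthest, and rho = 0.10 in +/+ and 0.86 in KO/+. Chat had negative values, r = -0.59 (permutation p = 0.00082, adjusted 0.00547) and rho = -0.60 (p = 0.00064, adjusted 0.0064), with r = -0.52 without the 2 farthest libraries and rho = -0.01 in +/+ and -0.69 in KO/+. In cortex-like libraries Cck did not pass with these genes, at r = 0.19 (permutation p = 0.31, adjusted 0.484) and rho = 0.27 (p = 0.15, adjusted 0.297).

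Pvalb rose with the thalamus list and with the partners of parvalbumin cells in striatum-like libraries. With the thalamus list r was 0.86 and rho 0.91 (r = 0.91 without the 2 farthest libraries), with rho = 0.87 in +/+ and 0.63 in KO/+ of the KO line. In cortex-like libraries the same relation had r = -0.09 (permutation p = 0.66, adjusted 0.854) and rho = 0.15 (p = 0.42, adjusted 0.696), with opposite values within genotypes, 0.60 in +/+ and -0.85 in Δ12/+. With the parvalbumin cell partners r was 0.88 and rho 0.92 in striatum-like libraries (r = 0.90 without the 2 farthest, rho = 0.90 in +/+ and 0.57 in KO/+), against r = -0.20 (p = 0.3, adjusted 0.565) and rho = -0.11 (p = 0.54, adjusted 0.796, all by permutation) in cortex-like ones, where rho was 0.08 in +/+ and -0.41 in Δ12/+. Whether these relations differ between the sets was not tested.

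Npy and Nos1 fell as the thalamus list rose in striatum-like libraries. For Nos1, r was -0.75 and rho -0.77, with -0.88 in +/+ and -0.82 in KO/+ of the KO line and r = -0.71 without the 2 farthest libraries. For Npy, r was -0.69 and rho -0.79 (permutation p = 2e-05 for both, adjusted 0.000343 and 0.000379), with rho = -0.75 in +/+ and -0.41 in KO/+ and r = -0.75 without the 2 farthest. Lamp5 rose with the striatal projection neuron list, at r = 0.83 and rho = 0.89, with 0.86 in +/+ and 0.85 in KO/+ and r = 0.84 without the 2 farthest libraries. Calb2 rose with the hypothalamus list in striatum-like libraries, at r = 0.80 and rho = 0.83 (r = 0.87 without the 2 farthest), with rho = 0.84 in +/+ but -0.15 in KO/+, where that list was at most 4.51. Chat rose with its cholinergic partners, at r = 0.69 (permutation p = 3e-05, adjusted 0.000432) and rho = 0.66 (p = 0.00013, adjusted 0.00161), with rho = 0.27 in +/+ and 0.66 in KO/+ and r = 0.58 without the 2 farthest libraries. That list includes Slc18a3, which lies within Chat, so the relation may hold shared reads, which was not tested.

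**Figure D4:**
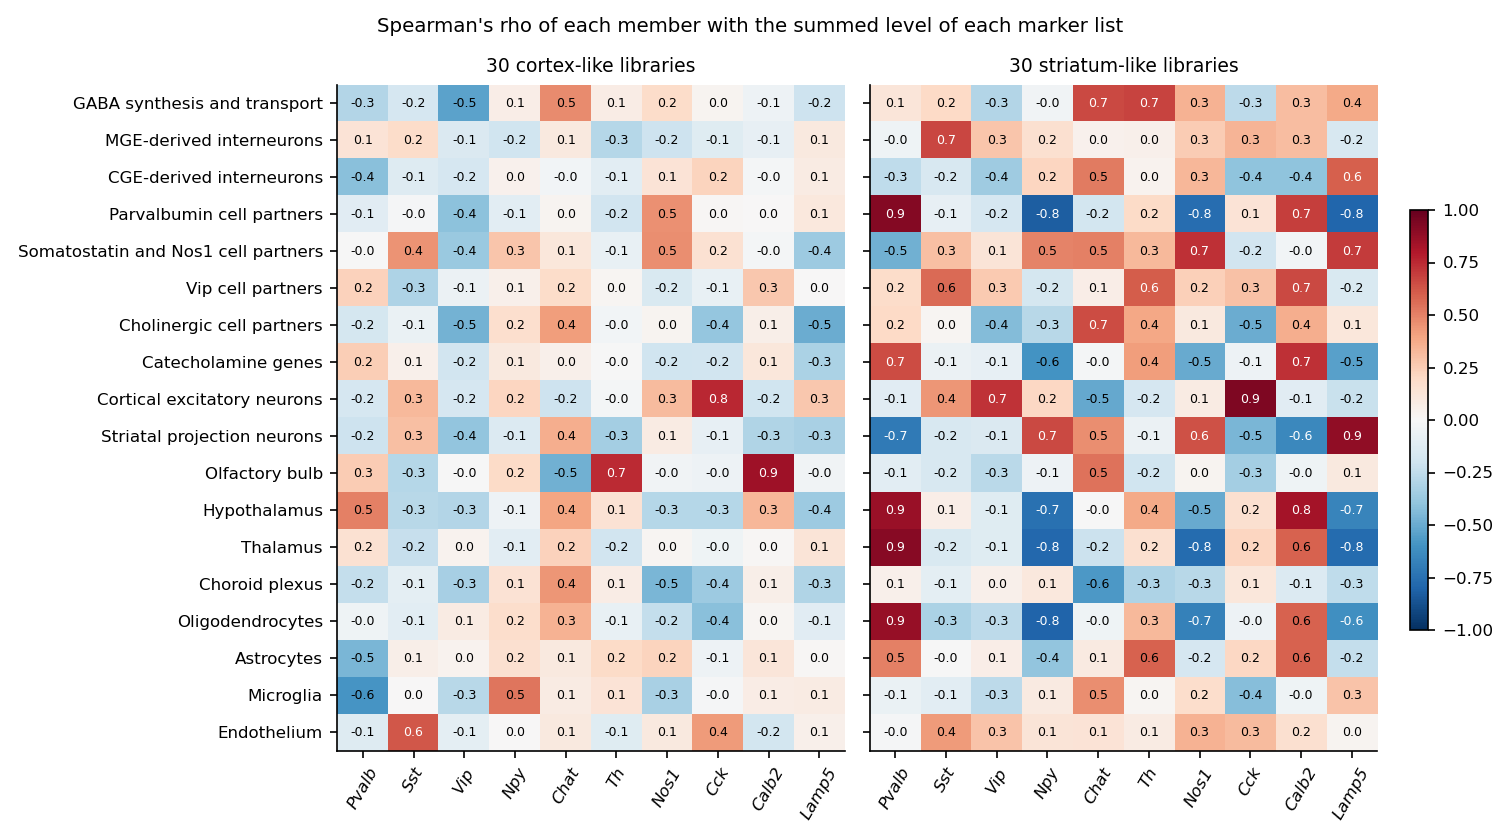
Spearman's rho (colour and printed value, from -1 to 1) of each member with the summed level of each marker list, in 30 cortex-like (left) and 30 striatum-like (right) libraries. Strong values are few in cortex-like libraries, led by Calb2 and Th with the olfactory bulb list and Cck with the cortical excitatory list (mostly Slc17a7), and many in striatum-like ones, where Pvalb and Calb2 stand opposite to Npy, Nos1 and Lamp5 for the thalamus, hypothalamus and projection neuron lists.

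**Figure D5:**
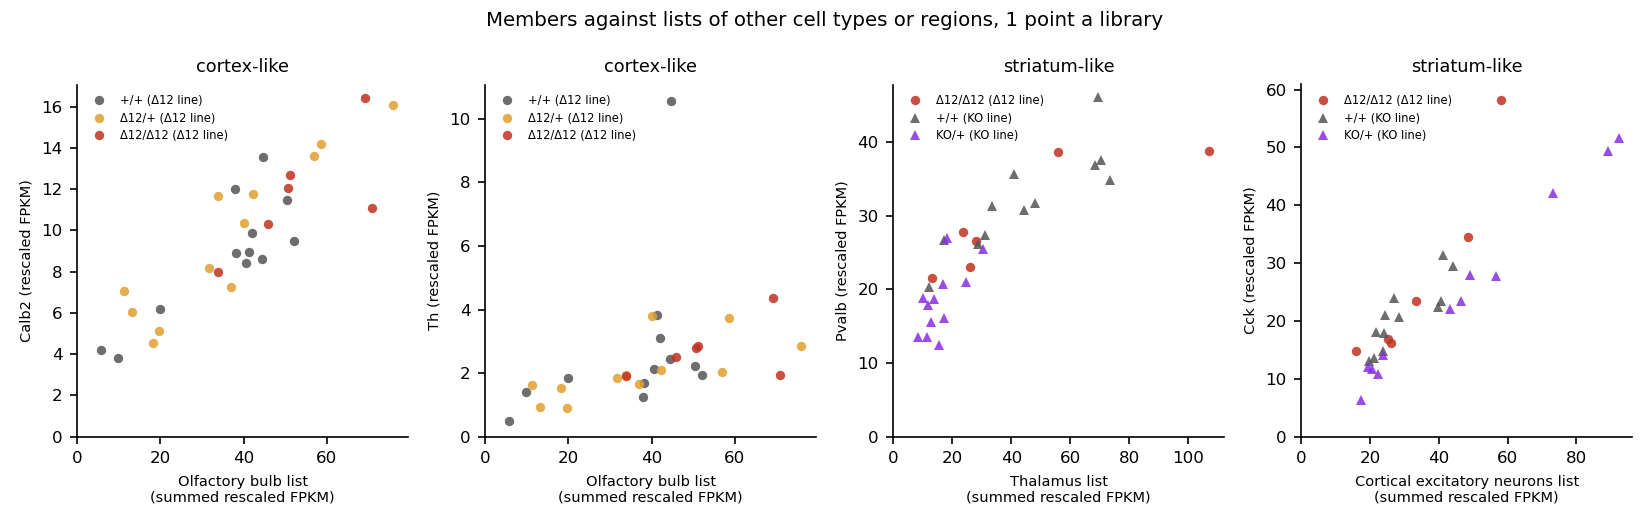
Rescaled FPKM of a member (vertical axes) against the summed rescaled FPKM of a marker list (horizontal axes), 1 point per library, coloured by labelled genotype, with circles for the Δ12 line and triangles for the KO line. The panels show Calb2 and Th against the olfactory bulb list in cortex-like libraries, and Pvalb against the thalamus list and Cck against the cortical excitatory list, Slc17a7 included, in striatum-like ones.

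Among themselves, the members formed opposed groups in striatum-like libraries. Pvalb ranked against Npy (rho = -0.80, 30 libraries), Nos1 (-0.75) and Lamp5 (-0.71) and with Calb2 (0.65). Nos1 ranked with Lamp5 (0.75) and Npy (0.68), and Vip with Cck (0.74). These values describe libraries that share lines and genotypes. In cortex-like libraries, the pair of Th and Calb2 was the only one with a rho over 0.6 in size.

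The genes most like each member were found by Spearman's rho over the 30 libraries of a set, among 13530 genes in cortex-like and 13974 in striatum-like libraries with a mean of at least 1 rescaled FPKM. In cortex-like libraries Calb2 was closest to Gpsm1 (0.88), Doc2g (0.87) and Omp (0.80), the last an olfactory marker protein, and Th to Sp8 (0.81), Cdhr1 (0.80) and Nppa (0.73). Cck was closest to Slc17a7 (0.75), Pcsk1n (0.72) and Crtac1 (0.71). In striatum-like libraries Pvalb was closest to Vamp1 (0.96), Ramp3 (0.94) and Pakap (0.93), and Cck to Olfm1 (0.92), Gfra2 (0.90) and Slc17a7 (0.90). Sst was closest to Ptprs (0.85), Nos1 to Epor (0.90), Lamp5 to Ski (0.91), Npy to Grik3 (0.86), Vip to Nov (0.78), Calb2 to Tmem130 (0.89), Chat to Gm5815 (0.86) and Th to Gad1 (0.72). Slc17a7, the transcript that defined the sets, was among the 3 genes nearest to Cck in both.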

How the data were processed

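Values were the FPKM that the authors deposited, 1 table per library, already normalized for transcript length and library size, with interval bounds. Per the labels (the submitters' processing notes), reads were demultiplexed (bcl2fastq 2.20), trimmed (Trimmomatic 0.30), aligned to GRCm38.p4 (TopHat2 2.0.14) and handled with SAMtools 1.3 and HTSeq 0.6.1p1. The program that made the FPKM is not given in the sources used here, read depth is unknown, and the interval width stands for precision. Of 47597 entries, 23 with a status other than OK were left out. FPKM were divided by a median-of-ratios factor per library (13235 genes, factors 0.761 to 1.38), which gave rescaled FPKM. Tests used limma 3.58.1 in R 4.3.3 on log2(rescaled FPKM + 0.5), with a mean of at least 0.5, labelled sex as covariate and the 12 libraries compared (all 60 for labelled tissue, with the line and genotype group as a further covariate). Fold changes are on that scale, which understates changes of low genes. The covariate was the labelled sex, which Xist went against in 30 of 60 libraries. Among Δ12/Δ12 libraries it coincided with the expression-defined sets. The limma script was tested on simulated data for KO/+ labelled striatum (15808 genes). Of 100 genes changed by 1 on the log2 scale 91 were recovered, and of 100 changed by 0.5, 63. Among the unchanged genes, 13 were called. Permutation tests were two-sided (Python 3.11.15, numpy 2.4.6).

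The 10 members and the 18 lists were chosen with earlier results of these data known. Genes named were the members, at most 4 genes per list with the highest mean level, each member's 3 nearest genes by rho, and Htt, Slc17a7 and Xist as label checks. Nothing in the labels states that replicates of a group were separate litters, so p-values measure the spread between these libraries. For 1 library the title and the genotype label name different lines, and it was assigned by the genotype label (labelled striatum KO/+ female 3). Alternatives were another scaling, pseudocount (0.1 or 1), filter, covariate, library set, a replicate block and each library left out. Correlations of same-numbered libraries' deviations averaged -0.07 to 0.03 over the comparisons, so the numbers were not taken to pair samples.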

Additional observations from a re-analysis of the deposited data

Results flagged for a closer look

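In 10 of 100 sets of a member and a labelled group of 6, 1 library stood apart by Dixon's criterion, which chance meets in about 1 of 20 such sets. The first labelled cortex +/+ female of the Δ12 line held both Th at 10.6 rescaled FPKM, with the other 5 libraries at 0.492 to 3.10, and Npy at 81.8, with the others at 26.4 to 46.6. Th also stood apart in the first labelled striatum +/+ male of the Δ12 line (3.84, others 1.70 to 2.45) and in the first labelled striatum KO/+ male (3.89, others 1.66 to 2.02). Low values were Npy in the first labelled striatum +/+ male of the KO line (19.9, others 25.6 to 26.8), Lamp5 in the second labelled cortex +/+ female of the KO line (17.4, others 21.5 to 22.6) and Calb2 in the second labelled striatum +/+ male of the Δ12 line (6.18, others 8.44 to 9.48). High values were Vip in the third labelled striatum KO/+ male (1.11, others 0.383 to 0.583), Chat in the second labelled cortex KO/+ female (5.43, others 3.39 to 4.06) and Calb2 in the third labelled cortex KO/+ male (1.79, others 0.435 to 0.925). What set these libraries apart was not tested.

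Labelled females and labelled males differed in their Δ12/Δ12 change for 16 of 20 tests on members, each with an adjusted p under 0.05 with limma, where 8639 of 15467 genes were called in labelled striatum and 6943 of 15696 in labelled cortex. The libraries labelled Δ12/Δ12 female were striatum-like and the labelled male ones cortex-like, so sex and tissue cannot be told apart here. In labelled striatum, the female effect minus the male effect on the log2 scale was -1.72 for Pvalb, -0.69 for Sst, -5.0 for Vip, 2.68 for Chat, 0.85 for Nos1, -3.29 for Cck and -1.71 for Calb2. In labelled cortex it was -1.13 for Pvalb, -1.31 for Sst, -4.97 for Vip, -1.23 for Npy, 2.85 for Chat, -2.26 for Th, -3.38 for Cck, -2.78 for Calb2 and -0.86 for Lamp5. Of the 29 interactions with labelled tissue, 0 were called.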

How the results depend on the processing

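Under alternatives other than leaving out 1 library, 69 of 89 counts of members called stayed within 1.5 times the reported count. The share of all genes called in the same fit stands in parentheses. In Δ12/Δ12 labelled striatum the 4 calls became 2 with quantile normalization (24.9%), 1 with no filter on low values (5.34%), 0 with no sex covariate (0.0582%), 0 in labelled males (0.0666%) and 8 in labelled females (70.9%), and 0 to 5 without 1 library (0.0325% to 41.1%). The 0 came without any 1 of the 3 labelled female +/+ or the 3 labelled female Δ12/Δ12 libraries. In Δ12/Δ12 labelled cortex the 0 calls became 6 with all 30 libraries of the labelled tissue (49.6%) and 7 in labelled females (56.5%), and 0 to 4 without 1 library, with 4 (25.4%) without the second labelled male +/+ library. In Δ12/+ labelled cortex 1 member was called with quantile normalization (0.371%). In KO/+ labelled striatum the 5 calls became 2 as deposited (2.25%), 1 with all 30 libraries (0.855%), 0 in labelled males (0.00634%) and 2 in labelled females (2.34%), and 4 to 5 without 1 library (4.83% to 9.13%). In KO/+ labelled cortex the 1 call became 3 as deposited (0.951%) and 0 with no filter (0.0913%), all 30 libraries (0.00623%), labelled males (0.0126%) or labelled females (0.00637%), and 0 to 1 without 1 library (0.0316% to 0.177%). Between the +/+ groups, 7 to 9 members were called in labelled cortex and 9 in labelled striatum in the fits without 1 library.

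The replicate block, which treats libraries of the same number and labelled sex as pairs, gave 0 calls in Δ12/Δ12 labelled striatum (0.0323% of genes), 3 in KO/+ labelled striatum (Pvalb, Npy and Lamp5, with 4.41% of genes) and 0 in KO/+ labelled cortex (0.0126%), and changed no other count of members. The numbers mark no shared mouse between genotypes.

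The direction of Sst reversed under quantile normalization, at 0.14 on the log2 scale in Δ12/Δ12 labelled striatum, 0.13 between the +/+ groups in labelled striatum and 0.26 in labelled cortex, where a value is set by rank alone. The ratio of medians of Npy, striatum-like over cortex-like, went from 0.724 to 1.00 there, and that of Sst from 0.387 to 0.976. Such ratios were also taken with FPKM as deposited and with the rescaled Slc17a7 threshold. Quantile normalization included, 21 ratios of the 10 members moved by less than the within-set SD (log2 scale), 8 moved further and 1 reversed. Without Slc17a7 in the cortical excitatory list, rho of Cck went from 0.76 to 0.27 in cortex-like libraries. The Slc17a7 threshold on the rescaled value gave the same sets. Low signal limits Vip in striatum-like and Chat in cortex-like libraries, whose deposited intervals had median half-widths of 56.6% and 44.7%.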
